A study of Mus musculus with 32 samples.

Results

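Liver expression was compared here for how much it differed from mouse to mouse within a group, rather than for its average. The data are 32 one-colour arrays, 1 per mouse, of liver RNA from male F1 C57BL/6J mice aged 21 weeks. There were 4 groups of 8: normal diet with control pellets (ND_CONT), normal diet with E171 pellets (ND_E171), Western diet with control pellets (WD_CONT) and Western diet with E171 pellets (WD_E171). E171 is food-grade titanium dioxide, added to the food for a target of 10 mg/kg body weight per day. The mothers ate the same control or E171 pellets before mating and the offspring stayed on them, so E171 exposure began before weaning in both E171 groups. The Western diet, which the treatment protocol calls a high fat diet, was given for 16 weeks from the age of 5 weeks. The litter of each mouse is not stated in the labels, and mice of 1 group may be littermates. Each group mean was subtracted gene by gene, and the deviations of the 16 Western diet arrays were then set against those of the 16 normal diet arrays, which are all 32 arrays of the series.

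Liver is mostly hepatocytes, which make plasma proteins, dispose of ammonia through the urea cycle and handle lipids, steroids and drugs. In male mice the pulsed release of growth hormone sets a male pattern of steroid-handling enzymes, carriers and major urinary proteins in these cells. A long Western diet loads the liver with fat, and in some animals lipid-laden macrophages gather and stellate cells lay down collagen, to a degree that can vary among inbred littermates. In normal livers, feeding state and time of day also move many metabolic genes.

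The arrays carried 56605 probes, and 35777 of them, taken as 23670 genes with 1 probe each, were well above background on at least 6 of 8 arrays of some group. Levels are log2 of the spot signal over the array's 75th percentile, so 1 unit is a 2-fold step, and a level below 0 lies under that percentile. The 75th percentile ranged from 175 to 342 intensity units and 32164 to 37261 probes per array were well above background. Arrays of 1 group correlated at 0.981 to 0.996, and spots of the same probe repeated on an array had a median SD of 0.0343 to 0.0424 log2 units. Each of 4 slides held 2 mice of every group. Of 12 hepatocyte markers 11 were measured, with a summed log2 level of 12.9 to 13.3 on normal diet and 12.4 to 13.0 on Western diet. Of 11 exocrine pancreas markers, the trypsinogens Prss1 and Prss2 and 3 others were not measured above background, while Cela1 and Amy2a5 were well above background on all 32 arrays. In whole liver, fewer cells of a type and less RNA per cell cannot be told apart.

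The promoters of 4 genes that led the shared axis of variation on Western diet, described below, are shown first, because these are the genes whose levels moved together from mouse to mouse. They are Hsd3b5 and Clec2h, which were low in mice far along that axis, and Cyp2b9 and Cyp2b10, which were high there. Each runs over the 250 bases before the gene's start, 5′ to 3′ on the gene's own strand, from RefSeq's GRCm38.p6 table, and capitals mark a match to a searched motif on either strand.
Hsd3b5, chr3:98645535-98645784, minus strand: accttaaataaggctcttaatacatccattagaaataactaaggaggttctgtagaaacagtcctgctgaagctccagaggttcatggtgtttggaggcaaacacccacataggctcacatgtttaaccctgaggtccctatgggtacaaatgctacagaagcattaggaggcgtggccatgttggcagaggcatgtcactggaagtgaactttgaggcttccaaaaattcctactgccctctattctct
Clec2h, chr6:128662135-128662384, plus strand: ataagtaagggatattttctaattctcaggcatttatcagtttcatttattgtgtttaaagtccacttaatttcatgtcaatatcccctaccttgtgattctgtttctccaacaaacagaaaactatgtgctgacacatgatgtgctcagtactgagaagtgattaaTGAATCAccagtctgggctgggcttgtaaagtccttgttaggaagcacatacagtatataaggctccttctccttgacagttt
Cyp2b9, chr7:26173159-26173408, plus strand: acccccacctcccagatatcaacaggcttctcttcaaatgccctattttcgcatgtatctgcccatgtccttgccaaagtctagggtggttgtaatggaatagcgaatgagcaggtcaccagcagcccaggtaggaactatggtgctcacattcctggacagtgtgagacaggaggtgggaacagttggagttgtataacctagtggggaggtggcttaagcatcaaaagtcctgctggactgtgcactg
Cyp2b10, chr7:25897408-25897657, plus strand: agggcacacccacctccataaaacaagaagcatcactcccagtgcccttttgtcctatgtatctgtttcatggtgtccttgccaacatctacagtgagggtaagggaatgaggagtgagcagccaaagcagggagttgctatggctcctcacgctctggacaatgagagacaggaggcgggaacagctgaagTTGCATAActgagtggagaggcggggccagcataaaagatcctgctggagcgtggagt

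The capitals in Clec2h match TGANTCA, the AP-1 motif as searched here, in which N stands for any base and is A in Clec2h. Those in Cyp2b10 match the D-box TTATGNAA, read on the other strand. Hsd3b5 and Cyp2b9 held no match to these, to the E-box CACGTG or to TTCNNNGAA, the half-site pair that STAT factors bind. Among 32851 mouse promoters of this length, 6.02% held the E-box, 3.07% the D-box, 6.75% the AP-1 motif and 7.02% TTCNNNGAA. Among promoters of genes with larger spread on Western diet the shares were 4.90%, 3.92%, 5.88% and 6.86%, and among those of genes with smaller spread they were 10.7%, 3.57%, 1.79% and 7.14%. The latter are shares of 56 promoters and hold 6 with an E-box and 1 with an AP-1 match. A match describes letters in this window and is not evidence of binding.

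Over all genes the 2 diets had nearly the same spread. The median residual SD of a gene was 0.214 log2 units on normal diet and 0.224 on Western diet, and 52.8% of genes were more variable on Western diet. The residual variance summed over genes differed by a log2 ratio of 0.07, within the range given by exchanging mice between diets (permutation test within each E171 arm, 2-sided, p = 0.684; adjusted over the 4 tests of this kind, 0.905). Single genes departed from this common level in both directions, as the scatter plot of gene SDs shows. The spread test compared absolute deviations from the group mean between diets with limma, adjusted by Benjamini-Hochberg over all genes. It called 106 genes more variable on Western diet, 0.448% of those tested, and 59 less variable, 0.249%, together 165 or 0.697%. Of the 106, 105 had the larger SD on Western diet in both E171 arms, and all 59 had the smaller SD in both. The genes were called on both arms together, so this agreement follows in large part from how they were chosen. The count rests on the measure of spread: with deviations from group medians 7 genes were called larger and 1 smaller, with limma on squared deviations 0 and 0 (at an unadjusted p under 0.05, 1826 and 1274), and with the mean of each slide removed 0 and 5 (unadjusted 929 and 1728). An F ratio of variances gave 128, 0.541%, and 97, 0.41%. Leaving out 1 mouse moved the 106 to between 38, without WD_CONT replicate 5, and 219, without WD_CONT replicate 1, and the 59 to between 23, without ND_E171 replicate 1, and 110, without ND_E171 replicate 6. Without one or another of 16 mice the first count, and of 11 mice the second, moved by over 1.5 times.

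**Figure D1:**
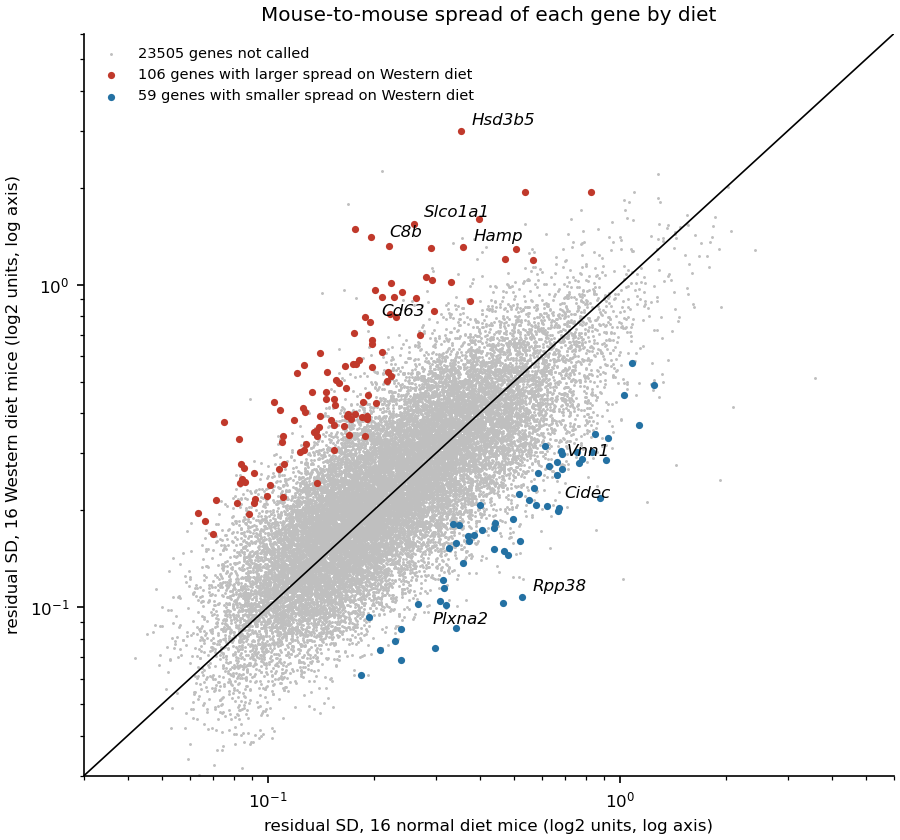
Residual SD of each of the 23670 genes over 16 normal diet mice (x axis, log2 units, log axis) and over 16 Western diet mice (y axis, log2 units, log axis), with the line of equality. Red points are the 106 genes called more variable on Western diet and blue points the 59 called less variable. Most genes lie around the line, and Hsd3b5 stands highest.

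Of the genes called more variable on Western diet, Hsd3b5 had the largest SD ratio. Hsd3b5, a male-specific hepatic steroid-reducing enzyme of the 3-beta-hydroxysteroid dehydrogenase family, spread 8.43-fold more widely. Its probe lies at chr3:98422576-98422635 (mm9), the build of the array's own annotation. Its log2 level was 5.54 to 6.81, median 6.42, in ND_CONT and 5.95 to 6.80, median 6.45, in ND_E171. On Western diet it ran from -4.48 to 3.62, median -0.99, in WD_CONT and from -4.66 to 3.96, median -0.81, in WD_E171. No Western diet mouse reached the lowest normal diet mouse, and the lowest and highest Western diet mice lay over 8 log2 units apart while the probe was well above background on all 32 arrays. The residual SD rose from 0.355 to 2.99 log2 units (limma on absolute deviations, adjusted p = 0.00197), and it stayed called when any 1 of the 32 mice was left out.

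Other genes of the male pattern were called as well. Slco1a1 (probe at chr6:141857328-141857387, mm9), which carries organic anions such as steroid sulphates into hepatocytes, had a log2 level of 3.48 to 4.48 over all normal diet mice. On Western diet it was -1.05 to 2.75, median 1.31, in WD_CONT and -1.97 to 3.15, median 1.5, in WD_E171, again below every normal diet mouse. Its residual SD was 0.260 and 1.55 (adjusted p = 0.0460, limma), and it stayed called in 14 of 32 fits that left out 1 mouse. Mup3, a major urinary protein, had an SD of 0.141 and 0.616 on normal and Western diet (adjusted p = 0.0460, limma), but its 3 probes gave log2 SD ratios of -0.44 to 2.12, and close family members could share its signal. Sult2a8, a hepatic bile acid sulphotransferase, spread 4.36-fold more widely. Mup3 and Sult2a8 each stayed called in 11 of 32 such fits.

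Of 19 male-biased genes measured in every group 17 had the larger SD on Western diet, where 52.8% of all genes did, and 3 were called, where 0.448% of all genes were called larger. Their median log2 SD ratio was 0.94, beside 0.03 for all genes. With the 1 other measured member their median SD was 0.302 on normal diet and 0.640 on Western diet. Within slides the picture was uneven: the log2 ratio of pooled within-slide SDs for these genes was 1.19, -0.30, 0.21 and 1.13 on the 4 slides. Cyp7b1, the oxysterol 7-alpha-hydroxylase, moved in the same direction without passing (SD 0.463 and 0.888, adjusted p = 0.202, limma). Of 10 female-biased genes measured in every group, 8 had the smaller SD on Western diet, and 0 of the 11 that passed the filter were called.

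**Figure D2:**
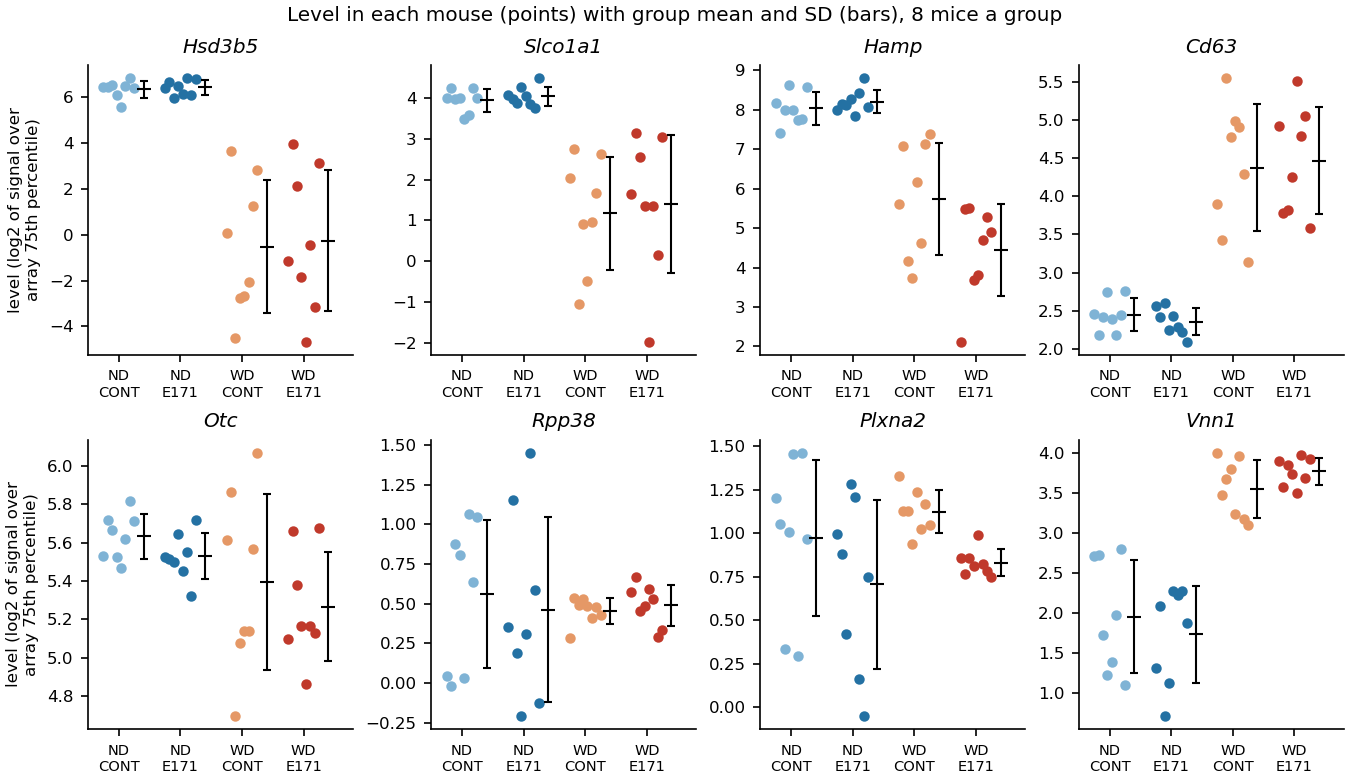
Level of 8 genes in each mouse (points; y axis, log2 of signal over the array's 75th percentile) in the 4 groups of 8, with the group mean and SD beside them as a bar. Hsd3b5, Slco1a1, Hamp, Cd63 and Otc scatter more widely in both Western diet groups, and Rpp38, Plxna2 and Vnn1 scatter more widely in both normal diet groups.

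C8b and Hamp, which encode secreted proteins, were also called more variable. C8b, the beta chain of complement component 8, had a log2 level of 5.28 to 6.52 on normal diet. It ran from 1.09 to 5.26 in WD_CONT and from 1.91 to 4.11 in WD_E171, and its 2 probes gave log2 SD ratios of 2.16 and 2.19 (SD 0.291 and 1.30, adjusted p = 0.00197, limma). Hamp, the hormone hepcidin that limits iron release into blood, was 7.41 to 8.79 on normal diet. It was 3.73 to 7.38 in WD_CONT and 2.12 to 5.51 in WD_E171, so no Western diet mouse reached the lowest normal diet mouse (SD 0.360 and 1.30, adjusted p = 0.0182, limma). Both genes stayed called with any 1 mouse left out. Hamp was the 1 gene called of 18 in metal handling, where 0.448% of all genes were called larger. The median log2 SD ratio of that list was 0.10, beside 0.03 for all genes.

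Gpld1, a plasma phospholipase that cleaves GPI anchors, Serpina3m, a secreted serine protease inhibitor of the acute phase list, and Scnn1a, the alpha subunit of the epithelial sodium channel, were called too. Their SDs were 4.17, 3.01 and 4.03 times larger on Western diet, and their mean levels were lower by 0.90, 0.73 and 1.59 log2 units on Western diet. Scnn1a's 2 probes differed, with log2 SD ratios of 0.30 and 2.01. Several called genes were instead higher on Western diet. Cbr3, a carbonyl reductase, ran from -1.27 to -0.39 on normal diet, from -0.03 to 3.62 in WD_CONT and from 0.68 to 2.36 in WD_E171. Golm1, a Golgi membrane protein, Fndc10, a membrane protein with a fibronectin type III domain, and the predicted gene Gm32191 had SDs 4.47, 4.21 and 4.99 times larger on Western diet, with no overlap of levels between the diets. Tox2, a nuclear HMG-box protein, overlapped between diets and its 2 probes gave log2 SD ratios of 0.10 and 2.13. Of the 106 genes, 59 had the higher mean on Western diet, so larger spread went with both directions of the average. Over all genes the median difference of means, Western minus normal diet, was -0.11 log2 units.

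Amino acid and urea metabolism had the highest median ratio of the 39 gene lists. Of 22 measured members, which break down amino acids or feed nitrogen into urea, 21 had the larger SD on Western diet. The median log2 SD ratio was 1.0, the median SD was 0.194 on normal diet and 0.367 on Western diet, and 1 gene, Otc, was called. Over all genes 52.8% had the larger SD on Western diet and 0.448% were called larger. Otc, ornithine transcarbamylase of the urea cycle, had a log2 level of 5.32 to 5.82 on normal diet, 4.70 to 6.07 in WD_CONT and 4.86 to 5.67 in WD_E171 (SD 0.119 and 0.382, adjusted p = 0.0282, limma). Its Western diet range enclosed the normal diet range, and its other probe gave a log2 SD ratio of 0.69. Hal, histidine ammonia-lyase, and Agxt, alanine-glyoxylate aminotransferase, had SD ratios of 3.73 and 3.31 and did not pass (adjusted p = 0.0711 and 0.0700, limma). The direction held on each slide, with log2 ratios of pooled within-slide SDs of 0.34, 0.60, 0.51 and 0.76, while the same ratio over all genes was 0.19, -0.02, -0.45 and -0.01. Both arms showed it, with median log2 SD ratios of 0.83 in the control arm and 1.08 in the E171 arm.

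Some genes of scarring and of lipid-laden macrophages were called more variable on Western diet. Cd63, a lysosomal membrane tetraspanin, had a log2 level of 2.10 to 2.76 on normal diet, 3.14 to 5.54 in WD_CONT and 3.59 to 5.51 in WD_E171. All Western diet mice were above all normal diet mice, and the SD was 0.196 and 0.768 (adjusted p = 0.00836, limma). Timp1, the inhibitor of matrix metalloproteinases, had SDs of 0.166 and 0.561 (adjusted p = 0.0322, limma). Of 10 genes of lipid-associated macrophages measured in every group 9 had the larger SD on Western diet, with 1 called and a median log2 SD ratio of 0.79. Of 18 such fibrosis genes 18 did, with a median of 0.55, which ran from 0.12 with slide means removed to 1.03 with normexp background. Those called were Timp1 and Sparc, a matrix protein named after its value was seen, where 0.448% of all genes were called larger. Genes of these lists and of the bile duct list that missed the test were Ctsk, the collagen-cleaving cathepsin K, Itgax, the integrin CD11c, Spp1, osteopontin, Fbn1, fibrillin 1, and Col5a1, a fibrillar collagen, with SD ratios from 2.08 to 2.60 and adjusted p from 0.0591 to 0.0702 (limma).

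Hepatic cytochromes P450 and the sugar-sensing factor ChREBP had single genes with large ratios that missed the test. Cyp2c37, Cyp2c50 and Cyp2c54, closely related enzymes whose probes may share signal, had SDs 3.70, 3.47 and 3.37 times larger on Western diet (adjusted p = 0.0955, 0.116 and 0.139, limma). The list they belong to had a median log2 SD ratio of 0.12 over 20 members measured in every group, beside 0.03 for all genes. Mlxipl, which encodes ChREBP, had SDs of 0.148 and 0.393 (adjusted p = 0.0538, limma).

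Of 21 cell cycle genes that passed the filter, 16 were measured in every group, and the others only where they were high. Of the 16, 13 had the larger SD on Western diet, with a median log2 SD ratio of 0.79, and 0 of the 21 were called (limma). Their examples were Ccnb2, cyclin B2, Cdc20, which activates the ubiquitin ligase of anaphase, and Plk1, a mitotic kinase, with SD ratios of 2.66, 2.41 and 2.38. Kupffer cell and macrophage markers had a median of 0.30, with 13 of 15 larger and 0 called, but that median was 0.03 without WD_CONT replicate 5 and -0.06 with array brightness removed. Cd163, the haemoglobin scavenger receptor, ran from -3.52 to 1.1 in WD_CONT and from 0.56 to 1.98 in ND_CONT. C1qb, a complement C1q chain made by macrophages, had SDs of 0.432 and 0.677. Within slides the lipid-associated macrophage, fibrosis and cell cycle lists were not steady. Their log2 ratios of pooled within-slide SDs ran from -0.57 to 1.12, from -0.38 to 0.59 and from -0.73 to 0.76. Clec4g, a lectin of liver sinusoidal endothelium, was called at an SD of 0.0915 and 0.260 (adjusted p = 0.0460, limma), though its 2 probes gave log2 SD ratios of -1.06 and 1.51.

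Of the genes called less variable on Western diet, Rpp38 and Plxna2 had the SD ratios farthest from 1. Rpp38, a protein subunit of ribonuclease P, had a log2 level of -0.02 to 1.06 in ND_CONT and -0.20 to 1.45 in ND_E171. It was 0.28 to 0.54 in WD_CONT and 0.29 to 0.67 in WD_E171, inside the normal diet range and around much the same centre (SD 0.527 and 0.107, adjusted p = 0.0140, limma). Plxna2, a semaphorin receptor, was 0.30 to 1.46 in ND_CONT and -0.05 to 1.28 in ND_E171. It was 0.94 to 1.33 in WD_CONT and 0.75 to 0.99 in WD_E171 (SD 0.467 and 0.103, adjusted p = 0.0309, limma). The mean differed between diets by -0.04 log2 units for Rpp38 and 0.14 for Plxna2. The probe of Rpp38 lies at chr2:3246440-3246499 and that of Plxna2 at chr1:196642958-196643017 (mm9).

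The other named genes with smaller spread were Palmd, a paralemmin-family membrane protein, Snx30, a sorting nexin, Atg9b, an autophagy membrane protein, Dapk2 and Dyrk3, protein kinases, Fam3c, a secreted protein, Abhd5, the co-activator of the triglyceride lipase ATGL, Tmem131l, a transmembrane protein, Atm, the DNA damage kinase, and 0610009E02Rik. Their SDs were 2.98 to 4.0 times larger on normal diet. For Abhd5 and Tmem131l the probes did not agree, with log2 SD ratios of -1.65 to -0.02 over 3 probes and -1.88 to 0.26 over 5. Vnn1, the pantetheinase that PPARA induces, was higher and tighter on Western diet: it was 0.71 to 2.80 on normal diet, 3.10 to 4.01 in WD_CONT and 3.50 to 3.97 in WD_E171 (SD 0.661 and 0.282, adjusted p = 0.0322, limma). Cidec, a lipid droplet protein, was -1.04 to 1.64 on normal diet and 6.54 to 7.22 on Western diet, a larger shift of the mean than for Vnn1. Its SD of 0.648 and 0.208 did not pass (adjusted p = 0.0538, limma), and neither did that of Srebf1, the lipogenic transcription factor (0.637 and 0.192, adjusted p = 0.0557, limma).

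Cholesterol synthesis went the other way from amino acid metabolism. Of 24 targets of SREBP2, the factor that switches on cholesterol synthesis when sterols are scarce, 20 had the smaller SD on Western diet and none was called. Their median SD was 0.496 on normal diet and 0.257 on Western diet, with a median log2 SD ratio of -0.55. The median was -0.87 in the control arm and 0.19 in the E171 arm, and no gene passed the test of the difference between arms. On the slides the log2 ratio of pooled within-slide SDs was 0.10, -0.98, -1.48 and 0.99. Idi1, isopentenyl-diphosphate isomerase, shows the shape: it was 3.85 to 6.05 in ND_CONT, 4.23 to 5.00 in ND_E171, 2.70 to 2.95 in WD_CONT and 2.38 to 3.17 in WD_E171. Mvk, mevalonate kinase, and Msmo1, a sterol C4-methyl oxidase, had SDs 3.45 and 3.04 times larger on normal diet and did not pass (adjusted p = 0.132 and 0.0601, limma). Sqle, squalene epoxidase, was an exception, with SDs of 0.786 and 0.966.

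Acute phase and clock genes showed smaller medians on Western diet with hardly any single gene called. For 22 acute phase genes the median log2 SD ratio was -0.44, with 12 smaller and 10 larger. That median was -0.14 without ND_CONT replicate 5, -0.74 without WD_CONT replicate 6 and 0.01 with replicate means removed, and the 1 gene called, Serpina3m, was larger. Orm1 and Orm2, the orosomucoids, closely related neighbours whose probes may share signal, had SDs 4.0 and 4.14 times larger on normal diet and did not pass (adjusted p = 0.0967 and 0.0905, limma). S100a8 and S100a9, the calprotectin subunits of neutrophils, had SDs 2.59 and 2.63 times larger on normal diet and did not pass (adjusted p = 0.174 and 0.171, limma). Their list went the other way: of 7 neutrophil markers measured in every group, 5 had the larger SD on Western diet and 2 the smaller. The median log2 SD ratio of those 7 was 0.37. Of 16 clock genes measured in every group 12 had the smaller SD on Western diet, with a median of -0.26. Over all 18 that passed the filter none was called, and the median was 0.27 in the control arm and -0.89 in the E171 arm. Dbp, the clock output factor that binds the D-box, was 1.22 to 5.46 in ND_E171 and 5.18 to 6.35 in WD_E171. Per1 and Bhlhe40, clock repressors, had SDs 1.66 and 2.29 times larger on normal diet and did not pass (adjusted p = 0.338 and 0.239, limma). The labels do not state at what time of day each mouse was killed.

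The diets differed in how genes varied together. The deviations of the 16 mice of a diet can be resolved into independent components, each a pattern of genes that rise and fall together. On Western diet component 1 held 34.4% of the residual variance, and on normal diet 17.0%. The difference of 17.3 percentage points exceeded nearly all of those from exchanging mice between diets (permutation test, 2-sided, 100000 permutations, p = 0.00136, adjusted 0.00272). The effective number of components was 6.13 on Western diet and 10.8 on normal diet, a difference of -4.65 (permutation p = 4.6e-04, adjusted 0.00184). Variance per gene on component 1 was 0.0370 on Western diet and 0.0174 on normal diet, while that off it was 0.0708 and 0.0850, in squared log2 units. With any 1 mouse left out the difference in share stayed between 14.1 and 19.9 points, with permutation p of at most 0.0102. With the slide means removed it was 9.97 points (permutation p = 0.0404), and with dim probes kept it was 13.2 points and did not pass (permutation p = 0.0747).

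**Figure D3:**
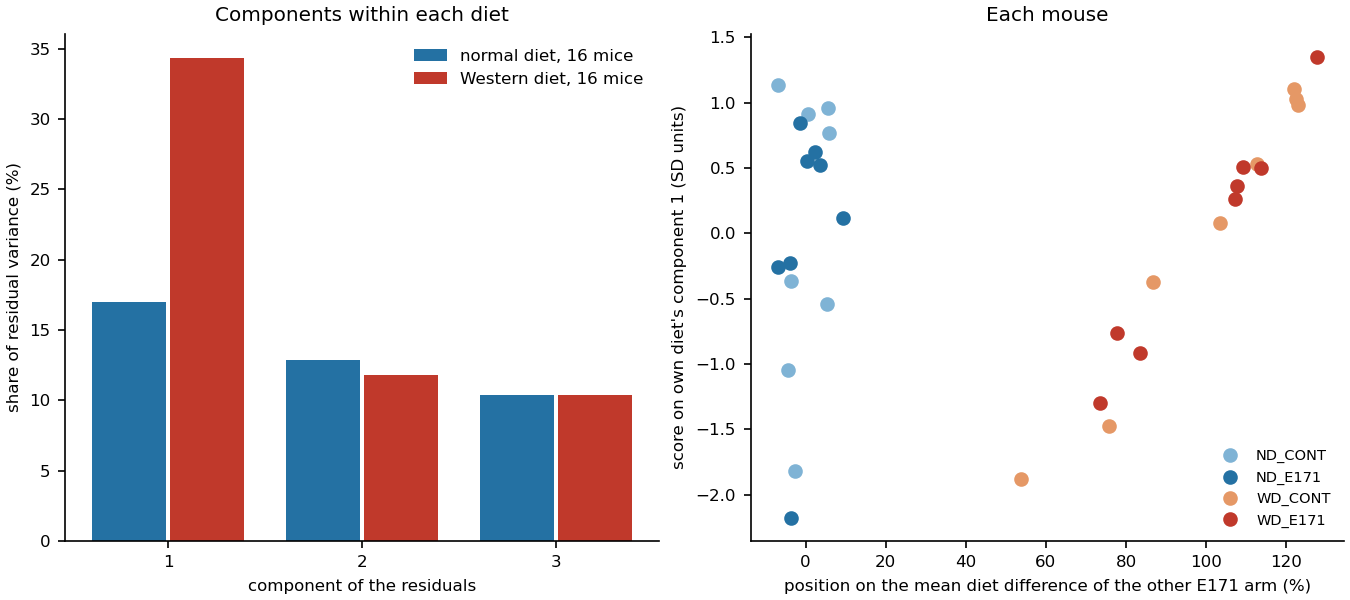
Left, the share of residual variance (y axis, percent) held by components 1 to 3 within the normal diet mice and within the Western diet mice. Right, for each mouse, its score on component 1 of its own diet (y axis, SD units) against its position along the mean diet difference of the other E171 arm (x axis, percent). Normal diet mice lie between -6.99% and 9.45% at any score, while Western diet mice run from 53.8% to 127.6% and their score rises with position.

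The axis of each Western diet group was also set against mice that had not been used to draw it. The axis drawn from WD_CONT alone held 18.2% of the residual variance of WD_E171, where the best possible single axis held 36.1%. Drawn from WD_E171, it held 21.7% in WD_CONT, where the best held 42.9%. The same WD_CONT axis held 3.01% in ND_CONT and 3.05% in ND_E171. Mice of both groups shared the 4 slides. With the mean of each group on each slide removed, an alternative chosen after seeing the data, the WD_CONT axis held 8.86% of WD_E171 and the WD_E171 axis 9.68% of WD_CONT, where the best held 41.2% and 42.4%. The normal diet axes then held 0.912% and 1.07% of each other's group. On normal diet, with slide kept, the axes of the 2 groups were less alike, with a cosine of 0.309 between them against 0.689 on Western diet, and each held 3.54% or 4.15% of the other group's variance. Of the 200 genes with the largest weights in WD_CONT, 179 had the same sign in WD_E171, and of those in ND_CONT 148 had it in ND_E171.

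The axis lay partly along the diet difference. Its cosine with the mean difference between diets was 0.670, and that of the normal diet axis was 0.0792. On a scale on which the normal diet mean is 0% and the Western diet mean 100%, measured for each mouse on the difference of the other E171 arm, normal diet mice lay between -6.99% and 9.45%. Western diet mice lay between 53.8% and 123% in WD_CONT and between 73.5% and 128% in WD_E171. No Western diet mouse overlapped the normal diet, and the 4 nearest to it were replicates 5 and 6 of WD_CONT at 53.8% and 75.9%, and replicates 6 and 1 of WD_E171 at 73.5% and 77.8%. Array brightness moved with the axis on both diets. The correlation of the score with the log2 75th percentile of the array was 0.635 on Western diet (Spearman 0.594, permutation p = 0.00876 and 0.0153, adjusted over 6 relations 0.0175 and 0.0305; 0.684 without the 2 most extreme arrays) and 0.820 on normal diet (Spearman 0.700, permutation p = 4.4e-04 and 0.00270, adjusted 0.00264 and 0.0125; 0.700 without 2). With that brightness removed from the residuals the difference in share was 15.0 points (permutation p = 5.0e-04). The score also went with the number of probes well above background, at 0.58 on Western diet (Spearman 0.68, permutation adjusted p = 0.017 and 0.013). On normal diet the correlation was 0.55 (Spearman 0.33, permutation adjusted p = 0.037 and 0.29). No alternative removed that number from the residuals. The 4 Western diet mice of the third slide all scored above 0, from 0.51 to 1.35.

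Mice far along the Western diet axis had more of some liver genes and less of others. A slope here is the change in log2 level for 1 SD of score. The sign of each axis was set so that Col3a1, a fibrillar collagen of the fibrosis list, had a positive slope. Hsd3b5 had a slope of -2.69, Clec2h, a lectin-like membrane receptor, -1.33, Slco1a1 -1.27, Serpina4-ps1, a serpin pseudogene, -1.26, C8b -1.10 and Hamp -0.89. On the positive side Cyp2b9 had 1.45, H19, an imprinted non-coding RNA, 1.32, Mmp7, matrilysin, 1.25, Cyp2b10 1.23 and Gipc2, a PDZ-domain protein, 1.20. Mmp7 was well above background on only 6 of 8 ND_E171 arrays. Cyp2b9 and Cyp2b10 are closely related drug-metabolizing cytochromes P450 whose probes could share signal, and their residuals correlated at 0.989 on Western diet and 0.994 on normal diet. They varied widely on both diets, with log2 SD ratios of -0.01 and -0.20, and their slope on the normal diet axis had the opposite sign, -0.71 and -0.68.

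Gene lists took different sides of the axis, and lists of hepatocyte functions lay on both. All 20 male-biased genes, all 22 amino acid and urea genes, all 11 hepatocyte markers and all 24 genes of oxidative phosphorylation had negative slopes, where 14573 of all 23670 genes did. All 21 fibrosis genes, all 21 cell cycle genes, all 12 of lipid-associated macrophages, all 9 cholangiocyte markers and all 8 of MHC class II had positive slopes. So did 17 of 24 SREBP2 targets, 15 of 20 lipogenesis genes, 16 of 20 lipid droplet and uptake genes and 16 of 18 NRF2 targets, and 12 of 15 Kupffer cell markers. The medians were 0.44 for fibrosis, 0.52 for cell cycle, 0.61 for lipid-associated macrophages, -0.45 for male-biased and -0.28 for amino acid genes, beside -0.04 for all genes. These counts and medians take every member that passed the filter, including some that passed only where they were high. Members measured in every group were 18 for fibrosis, 16 for cell cycle, 10 for lipid-associated macrophages, 8 for cholangiocytes and 19 for male-biased genes. For fibrosis, cell cycle, lipid-associated macrophages and male-biased genes, every member had the same sign in both Western diet groups when each was fitted alone. So did 19 of 22 amino acid genes and 18601 of all 23670 genes. The same held for 16 of 20 lipid droplet and uptake genes, 12 of 15 Kupffer cell markers and 12 of 18 NRF2 targets. It held for only 13 of 24 SREBP2 targets and 8 of 20 lipogenesis genes. The median slope of SREBP2 targets was 0.13 in WD_CONT and -0.03 in WD_E171. That of lipogenesis genes was 0.30 and -0.03, so the side of these 2 lists differed between the groups. Cftr, the chloride channel of the bile duct, had a slope of 0.50 and Spp1 of 0.82. The summed level of cholangiocyte markers ran from 3.74 to 6.30 on Western diet and from 3.02 to 4.13 on normal diet. That sum largely follows Spp1, which is also on the lipid-associated macrophage list. Spp1 alone ran from 3.35 to 6.18 on Western diet and from 2.42 to 3.76 on normal diet. The part of cell numbers in the slopes of these lists was not tested.

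**Figure D4:**
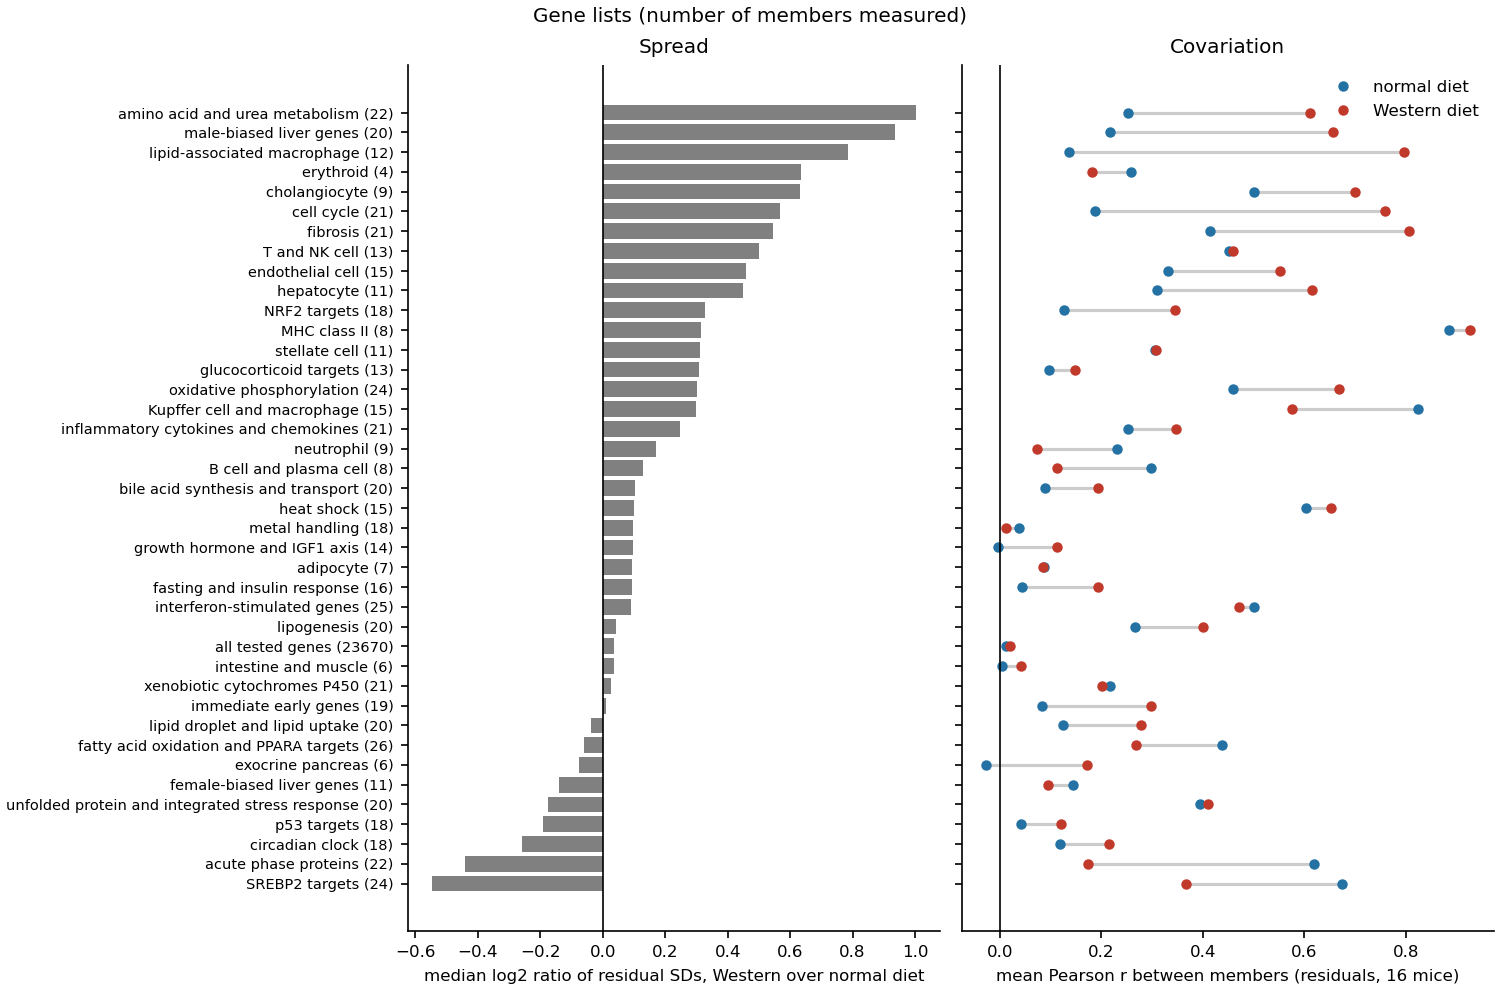
For each gene list, with the number of members measured, the median log2 ratio of residual SDs, Western over normal diet (left), and the mean Pearson r between members over 16 mice of each diet (right). Amino acid, male-biased and lipid-associated macrophage genes stand at the top in spread and had the higher mean r on Western diet, while SREBP2 targets and acute phase proteins stand at the bottom and had the lower. All members that passed the filter are plotted, including those above background on Western diet only.

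Members of 1 list moved together more closely on Western diet for most of these functions. The mean r between members went from 0.172 on normal diet to 0.779 on Western diet for 10 lipid-associated macrophage genes, from 0.162 to 0.734 for 16 cell cycle genes and from 0.439 to 0.828 for 18 fibrosis genes, taking members measured in every group. It went from 0.210 to 0.666 for 19 male-biased genes and from 0.253 to 0.612 for amino acid and urea genes. MHC class II genes were closely tied on both diets, at 0.884 and 0.926. Other lists loosened: acute phase genes went from 0.619 to 0.173, SREBP2 targets from 0.673 to 0.367, and Kupffer cell markers from 0.823 to 0.575. Covariation was also higher on Western diet over all pairs of genes, where the mean absolute r was 0.252 on normal diet and 0.315 on Western diet, and these list values are given with no test.

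The named genes of each direction formed patterns of their own. Among the 12 named genes with larger spread on Western diet, the mean absolute r over 66 pairs was 0.823 on Western diet and 0.315 on normal diet, beside 0.315 and 0.252 over all gene pairs. Hsd3b5 correlated with Slco1a1 at 0.927 on Western diet and 0.581 on normal diet, and with Cbr3 at -0.916 and 0.0979. Among the 12 with smaller spread the order was turned, with 0.528 on normal diet and 0.211 on Western diet. On normal diet Rpp38, Palmd, Fam3c, Abhd5 and Atg9b rose and fell together, against Snx30, Tmem131l and Atm: Fam3c correlated with Abhd5 at 0.886, Palmd with Tmem131l at -0.809 and Rpp38 with Snx30 at -0.772. These genes were chosen by their spread, and a gene that hardly varies has little to correlate, so the values are given with no test.

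On normal diet component 1 had other leading genes, though its axis had a cosine of 0.389, sign aside, with the Western diet axis. It carried Lcn2, lipocalin 2, with a slope of -0.99, Saa2, serum amyloid A2, -0.84, Marco, a scavenger receptor of Kupffer cells, -0.80, and Cfd, the complement factor adipsin, -1.22. On the other side were Cyp7a1, the rate-limiting enzyme of bile acid synthesis, with 0.94, Rspo1, R-spondin 1, with 1.02 and Cib3, a calcium-binding protein, with 0.99. Saa2 and Lcn2 owed much to 1 mouse, replicate 5 of ND_CONT, at 9.31 and 4.61 where the other 7 lay between 4.36 and 5.97 and between -0.75 and 1.31. Fibrosis genes had a median slope of 0.22 on the normal diet axis and 0.44 on the Western diet axis. Those of Kupffer cell markers were -0.22 and 0.34.

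A set of 10 genes standing for different functions were set against each other within each diet. They were Cidec, Col3a1 (a fibrillar collagen), Cd68 (a macrophage marker), Sqle, Cyp7b1, Dbp, Lcn2, Cdkn1a (the cell cycle inhibitor p21), Igfbp1 (an insulin-responsive binding protein) and Cyp2b10. Of 45 pairs on normal diet 0 passed (permutation of mice within groups, Benjamini-Hochberg over the pairs of both diets). On Western diet 12 of 36 passed, and the 9 pairs with Cdkn1a had no r because its deviations fell into separate clusters of mice. The closest was Cd68 with Lcn2, at r = 0.906 (Spearman 0.832, permutation adjusted p = 0.00162 and 0.00405; 0.851 without 2 mice, n = 16). Col3a1 correlated with Cd68 at 0.808 (Spearman 0.75, permutation adjusted p = 0.00616 and 0.0177; 0.692 without 2) and with Cyp7b1 at -0.847 (Spearman -0.832, permutation adjusted p = 0.00594 and 0.00675; -0.770 without 2). These are pairs of single genes: Lcn2 went with Cd68, while of the 22 genes of the acute phase list 14 had a negative slope on the Western diet axis and 8 a positive one.

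A pair that passed on 1 diet only need not differ between diets, so the difference was tested as well. It passed for 1 pair, Col3a1 with Lcn2, at -0.438 on normal diet and 0.797 on Western diet (permutation adjusted p = 0.0400). For Col3a1 with Cd68 it was -0.166 and 0.808 and did not pass (permutation adjusted p = 0.0703). Dbp with Igfbp1 passed at -0.787 on Western diet (Spearman -0.768, permutation adjusted p = 0.0203 and 0.0177; -0.824 without 2). On normal diet it was -0.357, and the difference between diets did not pass (permutation adjusted p = 0.181). With slide means removed 6 pairs passed on Western diet and 0 differed between diets, and without WD_E171 replicate 3 the pairs on Western diet were also 6.

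**Figure D5:**
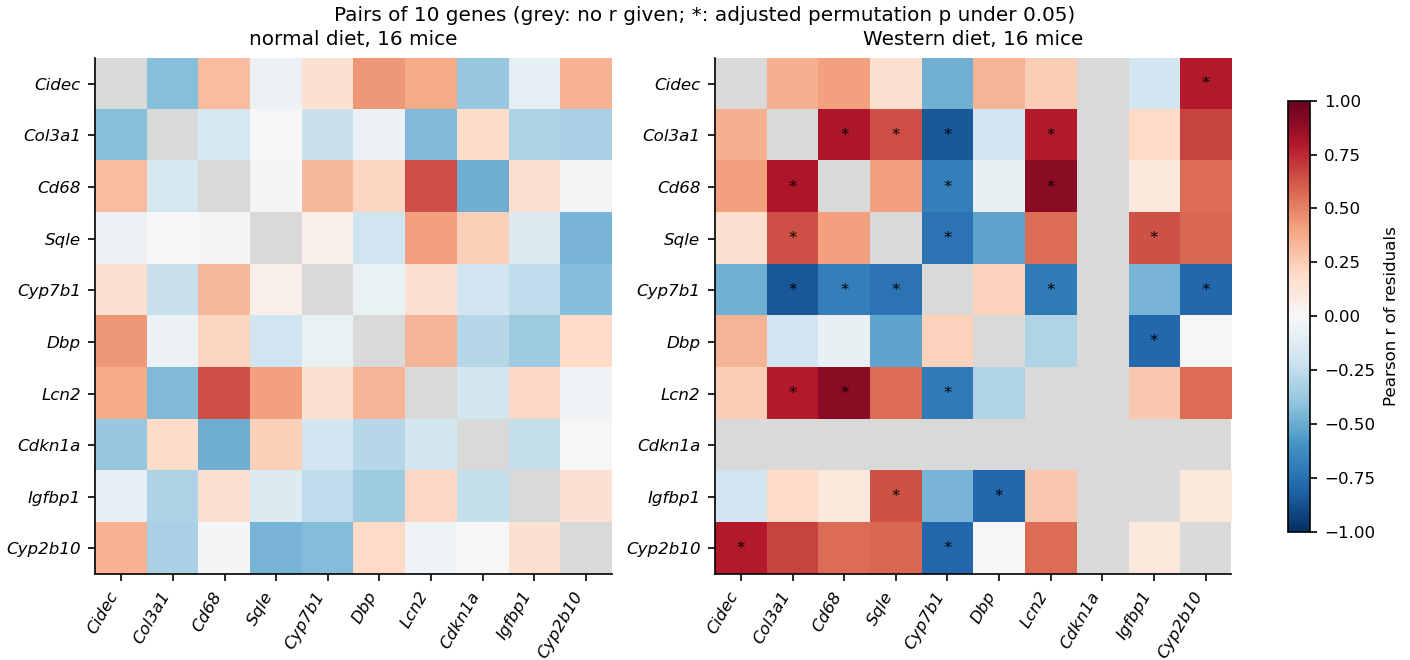
Pearson r of residuals between pairs of 10 genes over 16 normal diet mice (left) and 16 Western diet mice (right). Colour gives r from -1 to 1, grey marks pairs with no r, and stars mark an adjusted permutation p under 0.05. The 12 starred pairs are all on Western diet.

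Few genes passed the tests that involve E171. The control arm alone gave 83 genes whose spread differed between diets, 0.351% of those tested, and the E171 arm 1, 0.00422% (limma on absolute deviations). At an unadjusted p under 0.05 the counts were 2766 and 2478. No gene passed the test of the difference between arms, where 1558 had an unadjusted p under 0.05. Against control pellets, E171 went with different spread for 4 genes on normal diet, 0.0169%, and 10 on Western diet, 0.0422% (limma). With E171 the spread was larger for 1 and smaller for 3 genes on normal diet, 0.00422% and 0.0127%, and larger for 2 and smaller for 8 on Western diet, 0.00845% and 0.0338%. Single mice moved these counts: the 83 became 14 without WD_CONT replicate 5, and the 10 became 0 without that mouse and 39 without WD_CONT replicate 6. Ifi27, an interferon-induced gene, was called more variable on Western diet over both arms (adjusted p = 0.0257, limma), with log2 SD ratios of 1.79 in the control arm and 0.30 in the E171 arm. The WD_CONT range was 5.96 to 7.26 and the WD_E171 range 5.79 to 6.30.

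Some of the largest SD ratios rested on 1 mouse and were not called. Ezh2, the methyltransferase of the Polycomb repressive complex, was 7.97 in replicate 6 of WD_E171 and -1.18 to -0.75 in the other 7, and its 5 probes gave log2 SD ratios of -0.38 to 3.41. Pfkfb3, a regulator of glycolysis, was 9.04 in replicate 3 of ND_CONT and 0.64 to 2.05 in the other 7, and its SDs were 2.09 and 0.418 (adjusted p = 0.181, limma). A gene's SD can therefore follow a single mouse, while the test on absolute deviations weighs all 16.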

How the data were processed

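Total liver RNA of 32 mice was labelled with Cy3 and hybridised to Agilent one-colour arrays. Per the file headers, the authors' scanner software (Agilent Feature Extraction 10.10.1.1) gave background-corrected spot intensity values, and the submitters' processing notes also name limma. The deposited table of log2 values served as an alternative. Levels here are log2 intensity minus each array's 75th percentile, on probes well above background on at least 6 of 8 arrays of 1 group, with the brightest probe per gene. Spread was tested with limma 3.58.1 (R 4.3.3) on absolute deviations from group means, and covariation by 100000 permutations of mice between diets within each E171 arm. Mice were separate samples but litters are unknown, so p-values measure spread between these mice. The tests were tested on simulated data with known differences in spread and in shared axes; the spread test found most of the widest simulated differences and missed most of the smaller ones, so a gene that did not pass may still differ. Alternatives covered normalization, background, filters, slide, replicate number, brightness and each mouse left out. Named genes were the 12 largest and 12 smallest called SD ratios, up to 3 members per list, the 10 largest SDs, the 8 largest axis weights each way, and 10 fixed genes. The genes compared, the 39 gene lists and the tests were chosen with earlier results of these data known, and the TTCNNNGAA motif was added after the data were seen. Replicate numbers were not used to pair mice.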

Additional observations from a re-analysis of the deposited data

Results flagged for a closer look

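Of 348 sets of 8 values examined (83 named genes in 4 groups, and 4 measures of each array), 17 had 1 mouse at the edge whose gap to the next, divided by the range of the group, passed the 95% limit of Dixon's test; chance alone gives about 1 in 20. The widest were single arrays: Ezh2 in WD_E171 (0.953; replicate 6 at 7.97, the others up to -0.75) and Pfkfb3 in ND_CONT (0.832; replicate 3 at 9.04, the others up to 2.05). Pfkfb3 in WD_CONT also had 1 high mouse (0.664). Replicate 5 of ND_CONT was high for Saa2 (0.675) and Lcn2 (0.616). Replicate 6 of ND_E171 stood apart in several measures: its array was the dimmest (0.540; 175 intensity units, the others 230 to 277), its residuals were the largest (0.598; root mean square 0.368 log2 units, the others 0.236 to 0.289), its score on component 1 was the lowest (0.634; -2.18, the others -0.26 to 0.84), and it was the edge mouse for Mup3 (0.555) and Col5a1 (0.636). Replicate 5 of WD_CONT, the Western diet mouse nearest the normal diet, was low for Cd68 (0.535) and high for Bhlhe40 (0.602). The remaining edge mice were WD_E171 replicate 3 for Plxna2 (0.539), WD_E171 replicate 4 for Dyrk3 (0.592) and Msmo1 (0.635), ND_CONT replicate 6 for Gipc2 (0.563) and WD_E171 replicate 2 for Marco (0.585). No named gene passed the test of a difference between E171 arms in the effect of diet on spread.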

How the results depend on the processing

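Counts are given below in the order larger and smaller spread on Western diet, then the control arm, the E171 arm, the difference between arms, and E171 against control on normal and on Western diet (106, 59, 83, 1, 0, 4 and 10 as reported), leaving out those within 1.5 times of the reported count; the cause of these changes was not tested. With deviations from group medians the counts were 7 and 1, 1 in the control arm, 0 in the E171 arm, and 0 and 0 for E171. With squared deviations they were 0 and 0, 0 in the control arm, 0 in the E171 arm and 0 for E171 on Western diet. With log2 deviations they were 204 and 108, 49, 14, and 7 for E171 on normal diet. The F ratio of variances gave 97 smaller. With normexp background they were 344 and 107, 132 in the control arm, and 0 and 20 for E171. The deposited table gave 364 and 123, 135 in the control arm, 1 between arms, 21 for E171 on Western diet, and 9 pairs of the 10 genes that differed between diets. With no filter on dim probes they were 268 larger, 180 and 47 in the arms, 4 between arms and 68 for E171 on Western diet, and the difference in the share of component 1 was 13.2 points and no longer passed (permutation p = 0.0747). Requiring signal on all arrays left 6 for E171 on Western diet. With quantile normalization the E171 arm had 2, E171 on normal diet 2, and 7 pairs differed. With every probe kept there was 1 between arms and 1 for E171 on normal diet. With slide as a block in the fit E171 on normal diet had 2.

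With the slide mean removed the counts were 0 and 5, 3 and 0 in the arms, 1 between arms and 0 for E171 on Western diet, 6 pairs correlated on Western diet and 0 differed. The log2 ratio of total variance then turned to -0.12 and the difference in root mean square per mouse to -0.0789 log2 units. Removing the slide within each diet, an alternative chosen after seeing the data, gave 57 and 142, 46 and 5 in the arms, 5 between arms, 15 and 1 for E171, 3 differing pairs, a ratio of -0.135 and a difference of -0.0856. With array brightness removed there were 54 larger, 0 in the E171 arm, 1 and 2 for E171 and 0 differing pairs, with a ratio of -0.017 and a difference of -0.032. Replicate numbers were not used to pair the mice. Of 48 same-number correlations of residuals 23 were over 0.1, with a median of 0.07 and a range of -0.29 to 0.57. Mice of different numbers were not set beside them, so whether mice of 1 number share something was not tested. As a replicate block in the fit the numbers gave 149 larger and 64 smaller, and 1 and 6 for E171. With the replicate block removed from the values, 6 pairs correlated on Western diet, 0 differed, the ratio was -0.0301 and the difference -0.0407, and the difference in share was 9.61 points (permutation p = 0.0499).

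Leaving out each mouse in turn gave 38 to 219 larger, 23 to 110 smaller, 14 to 120 in the control arm, 0 to 5 in the E171 arm, 0 to 3 between arms, 0 to 8 and 0 to 39 for E171, 0 to 1 and 6 to 14 correlated pairs, a variance ratio of -0.0295 (without WD_CONT replicate 5) to 0.13, a difference in root mean square of -0.0499 to 0.0443, a difference in share of 14.1 to 19.9 points and one in effective components of -5.24 to -3.81. The effective number of components stayed lower on Western diet, with permutation p of at most 0.0258, under each alternative run. Of 1157 other values for the 83 named genes, 911 kept direction and side of the threshold, 150 lost the call, 71 gained it, and 25 turned sign with no call under either setting. Precision is limited by 16 mice per diet and, for low levels, by signal close to background.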

Other observations

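Other gene lists had medians above the 0.03 of all genes with few single genes called. Over all genes 52.8% had the larger SD on Western diet and 0.448% were called larger. Of 24 measured genes of oxidative phosphorylation, the subunits that make ATP in mitochondria, 19 had the larger SD on Western diet and 0 were called (limma), with a median log2 SD ratio of 0.30 that was 0.51 in the control arm and 0.02 in the E171 arm. The mean r between them was 0.460 on normal diet and 0.667 on Western diet. Of 15 endothelial markers 13 had the larger SD, with 1 called, and their mean r was 0.331 and 0.552. Of 8 cholangiocyte markers measured in every group, genes of the bile duct lining, 7 had the larger SD, with a median of 0.73, and Cftr had SDs of 0.272 and 0.632 (adjusted p = 0.0830, limma).

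Genes of the NRF2 response, which deals with oxidants and reactive chemicals, had a median of 0.33, with 11 of 18 larger and 1 called, Cbr3. Over all genes the shares larger and called larger were 52.8% and 0.448%. The mean r between the NRF2 genes was 0.126 on normal diet and 0.345 on Western diet. Of 10 T and NK cell genes measured in every group 9 had the larger SD on Western diet and 0 were called, and their mean r was 0.436 and 0.596.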
